A study of Rattus norvegicus with 6 samples.

Results

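ASCRPR004694, ASCRPR007618 and ASCRPR002682 are 3 circular RNAs (circRNAs) of the rat lung, 3 of the 14145 circRNAs with a probe on the array used. They were picked by array ID because their signals were high on the 3 saline arrays, highest on saline replicate 3, and low on all 3 monocrotaline arrays. Their difference between the groups is therefore a description, and no p-value of theirs is given or used. The working name of the group, circRNAs lost after monocrotaline, held for ASCRPR004694 only in the sense that no monocrotaline array detected it reliably. ASCRPR002682 was still measured on every array, so the 3 are called here by their IDs.

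A circRNA is made when the spliceosome joins the end of an exon back to an earlier exon, which closes the RNA into a ring. With no free ends, circles withstand exonucleases and can outlive the linear transcripts of the same gene. Some bind microRNAs or proteins, but the function of most is not known, and the genes behind these 3 circles are not named in the sources used here. No sequence of the probes or circles was used here either.

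Lung tissue was taken from male rats labelled as 6 weeks old, 28 days after 1 intraperitoneal injection, and after perfusion with PBS. The 3 MCT samples came from rats given monocrotaline (MCT) at 60 mg per kg, and the 3 saline samples from rats given saline in place of it. Monocrotaline is a plant alkaloid whose liver metabolites injure the lung endothelium, and the injected rat is a model of pulmonary arterial hypertension. The strain is not given in the sources used here, nor is it stated that each replicate was a separate animal, so the spread between samples may be technical in part. In whole lung tissue, fewer cells of a type and less RNA per cell cannot be told apart. RNA was digested with RNase R, which degrades linear RNA and spares circles, and labelled with Cy3 on 1 array per sample.

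Array brightness differed and bears on all values below. The 75th percentile of the processed signal, the spot brightness after background subtraction, lay between 75.6 and 94.5 fluorescence units on the saline arrays, at 95.2 on MCT 2, and at 41.4 and 32.3 on MCT 1 and MCT 3. The scanner software marks a spot as well above background when its signal clearly exceeds the spread of the background, and 80.3% to 84.5% of circRNAs had this mark on the saline arrays, against 55.1% to 78.7% on the MCT arrays. The scanner headers put the saline arrays and MCT 1 on slide 1, and MCT 2 and MCT 3 on slide 2. Of 15 lung cell markers looked for, 0 were among the 39 linear probes that could be named, so the tissue label could not be checked here.

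ASCRPR002682 was the only one of the 3 that lay well above background on all 6 arrays. Its processed signal was 127.8, 131.5 and 287.3 units in saline lungs 1 to 3, and it was 9.69, 20.3 and 10.8 units in MCT lungs 1 to 3. Every MCT value lay below every saline value, and the lowest saline signal was 6.30 times the highest MCT signal before any scaling. Levels were put on a common scale by subtracting each array's 75th percentile from its log2 signals, called the scaled log2 signal. On it the saline mean was 0.95 ± 0.59 (SD, n = 3), and the mean of the MCT samples was -1.97 ± 0.34 (SD, n = 3). The difference in scaled log2 signal was -2.92 ± 0.40 (SE), or 7.56-fold lower in MCT lungs. Among the 7323 tested circRNAs that were well above background on all 6 arrays, this was the fourth lowest difference, next to -2.88 for the one after it, against a median of 0.060. ASCRPR002682 was chosen on this contrast, so its rank is a description only. On the MCT arrays it stood close above what the scanner software could tell from background: its signals were 1.59, 2.43 and 1.25 times the lowest signal called well above background on MCT 1, MCT 2 and MCT 3. On the saline arrays that ratio ran from 16.7 to 51.6.

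ASCRPR007618 was well above background on the saline arrays and on 1 MCT array. Its processed signals in saline lungs 1 to 3 were 175.4, 161.7 and 402.9 units. On MCT arrays 1 to 3 its signals were 6.03, 15.1 and 8.02 units. The groups did not overlap, and the lowest saline signal was 10.7 times the highest MCT signal before scaling. That array was MCT 2, at 1.81 times that array's lowest such signal. The values of MCT 1 and MCT 3 lay just under their arrays' lowest such signals, at 0.988 and 0.925 times these. Its scaled log2 signal averaged 1.36 ± 0.64 (SD, n = 3) over the saline samples and -2.48 ± 0.41 (SD, n = 3) over the MCT samples, a difference of -3.84 ± 0.44 (SE). With both undetected values raised to the lowest signal well above background, the difference was -3.80, so that the limit of detection moved it little.

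ASCRPR004694 was detected on no MCT array by the same mark, and its size of change is a bound. Its processed signals were 91.1, 79.2 and 190.1 units in saline lungs 1 to 3, against 3.20, 4.00 and 1.79 units in MCT lungs 1 to 3. The groups did not overlap. The MCT signals were 0.525, 0.478 and 0.206 times the lowest signal well above background on their arrays, and the software's own error came to 46.9%, 48.0% and 98.4% of them. Before background subtraction, the spot's median brightness on MCT 3 was 25 units, level with the mean of 24.6 units over 77 negative-control spots, which are designed to bind no rat RNA. On MCT 2 it lay 1.99 SD, and on MCT 1 4.45 SD, above those controls, so a faint signal was seen on MCT 1 by this measure. The software's other mark, for a positive and significant signal, was given on MCT 1 and MCT 2 but not on MCT 3. Undetected in this text means not well above background. Setting the saline mean against the detection limit gave a level at least 8.38-fold lower in MCT lungs. The bright group's mean and, per array, the higher of the probe's own signal and the lowest signal well above background entered this bound. The measured MCT mean of -4.15 ± 0.44 (SD, n = 3) in scaled log2 signal, against 0.34 ± 0.58 (SD, n = 3) in saline, rests on undetected values.

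**Figure D1:**
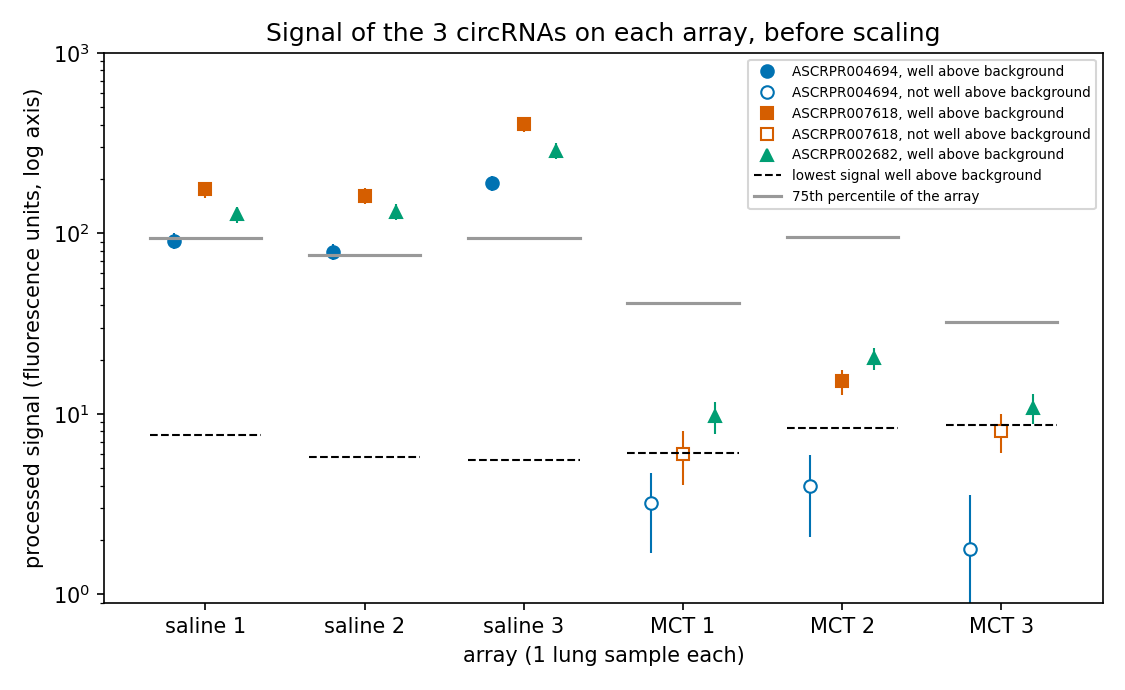
Processed signal of the 3 circRNAs on each of the 6 arrays (log axis, fluorescence units); bars are the scanner software's error, filled points lie well above background and open points do not, dashed lines mark each array's lowest signal well above background and grey lines its 75th percentile. ASCRPR002682 is filled on all 6 arrays, ASCRPR007618 on 4, and ASCRPR004694 on the 3 saline arrays.

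How common such a pattern was on the array gives the scale for these values. The test took in circRNAs marked well above background on 3 or more arrays, a filter that all 3 passed, ASCRPR004694 through the saline arrays alone. Of 11280 circRNAs tested, 798 (7.07%) had every MCT value below every saline value, as all 3 described here do by choice. In 223 (1.98%) saline 3 was in addition the highest of the 6 arrays. A mean at least 4-fold lower in MCT lungs was measured for 128 (1.13%). The limma test across all circRNAs called 2 (0.0177%) lower at an adjusted p of 0.05. Both are among the 3, which were chosen on this contrast, so nothing is read from this about them. The count changed with the processing and with single arrays. It was 0 with normexp background correction and quantile normalization, 0 in the authors' values and 0 with the filter on all 6 arrays. In these settings 628, 695 and 455 were lower at an unadjusted p of 0.05 by limma. The filter on all 6 arrays kept only ASCRPR002682 of the 3, so ASCRPR004694 and ASCRPR007618 could not be called under it. The count was 1 without saline 3, 12 without MCT 2 and 3 without MCT 3. With slide as a block it was 119. Slide 2 held no saline array, so the MCT estimates of that fit come from MCT 1 alone.

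MCT 2 was about as bright as saline 1, so that these arrays can be set side by side without scaling, though saline 1 is on slide 1 and MCT 2 on slide 2. The 3 circRNAs were chosen as low on all MCT arrays, MCT 2 among them, so their gaps here are a description only. Between saline 1 and MCT 2, whose 75th percentiles were 93.9 and 95.2 units, the unscaled signal differed 11.6-fold for ASCRPR007618 and 6.30-fold for ASCRPR002682, while ASCRPR004694 was undetected on MCT 2. With MCT 2 as the only MCT array, the scaled log2 differences were -4.92 for ASCRPR004694, -4.02 for ASCRPR007618 and -3.18 for ASCRPR002682. Within slide 1, MCT 1 differed from the 3 saline arrays by -4.04, -4.14 and -3.04 in the same order. The values of ASCRPR004694 rest on an undetected signal in both comparisons, as does that of ASCRPR007618 on MCT 1. Slide 2 held no saline array, so no value can be had within it. In both single-array comparisons all 3 circRNAs lay below every saline value, as did 21.2% of tested circRNAs for MCT 2 and 33.3% for MCT 1.

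Saline 3 stood above the other saline lungs for all 3. Its unscaled signal was 2.09 times that of saline 1 for ASCRPR004694, 2.30 times for ASCRPR007618 and 2.25 times for ASCRPR002682, and 2.40, 2.49 and 2.18 times that of saline 2. On the scaled log2 signal, saline 3 exceeded the mean of saline 1 and saline 2 by 0.996, 1.09 and 0.982. The median of this difference over all tested circRNAs was 0.068 and its 95th percentile 0.92, and 446 (3.95%) reached the smallest of the 3 values. This step is among the values on which the 3 were chosen. The software's error for these spots on the saline arrays was at most 10.1% of the signal. Probes of linear transcripts, which have up to 10 spots each, gave another measure of the error of a single spot, a median SD between spots of 0.066 in log2 signal at 75 to 450 units. In scaled log2 signal, saline 1 minus saline 2 was -0.11, -0.20 and -0.35 for ASCRPR004694, ASCRPR007618 and ASCRPR002682, whereas before scaling saline 1 was the brighter for the first and second of these. Saline 3 thus made up most of the SD in the saline group, and without it the differences between MCT and saline lungs were -4.16, -3.48 and -2.59.

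Among the MCT arrays no single sample was lowest for all 3 in scaled log2 signal. Before scaling, MCT 2 was the highest MCT array for ASCRPR007618 and ASCRPR002682. ASCRPR007618 and ASCRPR002682 were lowest in scaled log2 signal on MCT 1 and MCT 2 (-2.78 and -2.65, and -2.09 and -2.23) and less low on MCT 3 (-2.01 and -1.58). ASCRPR004694 was at -3.69 on MCT 1, -4.57 on MCT 2 and -4.18 on MCT 3, where undetected values have no order. Repeat spots of linear probes had a median SD of 0.18 in log2 signal at 10 to 30 units and of 0.30 below 10 units, which is the error of single spots alone. The lowest and highest MCT values of ASCRPR002682 lay 0.65 apart and those of ASCRPR007618 0.77 apart. MCT 3 also had the lowest 75th percentile, which raises every scaled value of that array. Its part in the order was not tested.

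**Figure D2:**
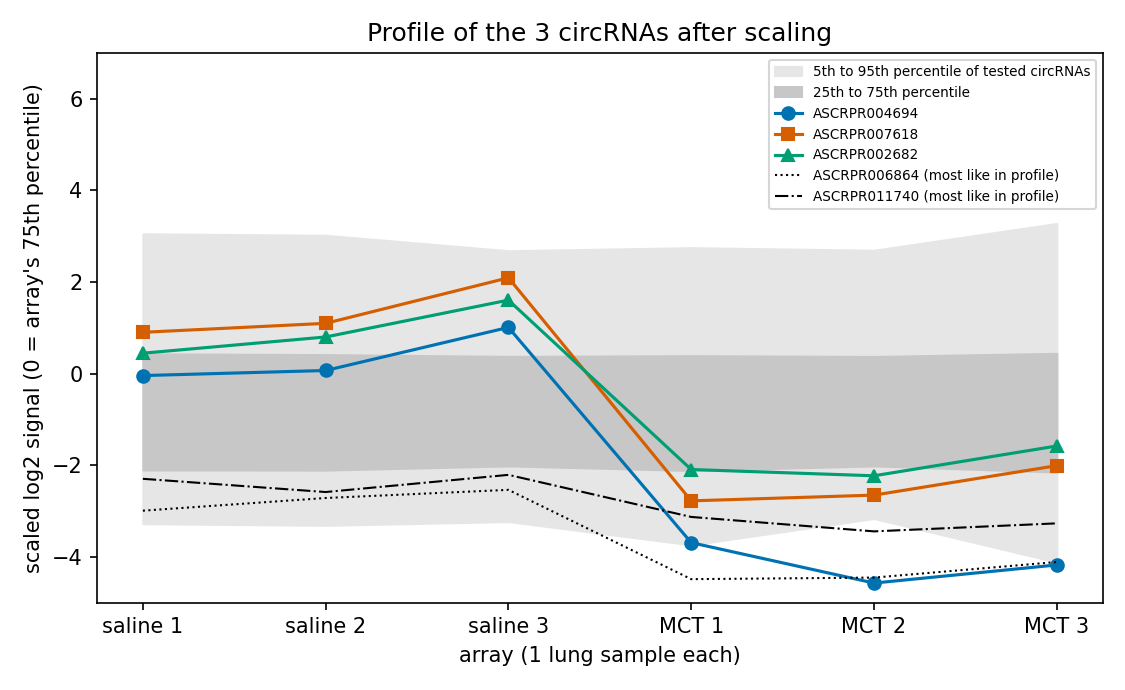
Scaled log2 signal of the 3 circRNAs and of the circRNAs most like them in profile on each array (0 is the array's 75th percentile); bands give the 5th to 95th and 25th to 75th percentiles of the 11280 tested circRNAs, and lines join points of a circRNA without implying an order of samples. All 3 are highest on saline 3, at 1.01 to 2.09, and lie at -1.58 or below on the MCT arrays. The 25th to 75th percentile band is nearly level, and the lower edge of the wider band is lowest on MCT 3.

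Ratios between the 3 spots of an array need no scaling, and in the processed signal they moved less between the saline lungs than the levels did. A ratio of signals of different probes depends on how well each probe binds and does not compare amounts, so what matters is its change from array to array. ASCRPR007618 gave 1.93, 2.04 and 2.12 times the signal of ASCRPR004694 on saline arrays 1 to 3, an SD of 0.070 in log2 ratio where the scaled levels themselves had SDs of 0.58 and 0.64. ASCRPR002682 gave 1.40, 1.66 and 1.51 times the signal of ASCRPR004694, with an SD of 0.12. ASCRPR007618 gave 1.37, 1.23 and 1.40 times that of ASCRPR002682, with an SD of 0.10. In the authors' values the SDs were 0.18 for ASCRPR007618 over ASCRPR004694, 0.065 for ASCRPR002682 over ASCRPR004694 and 0.18 for ASCRPR007618 over ASCRPR002682. All 3 SDs of the processed signal lay below the error of 0.20 to 0.21 that the software's errors give for a single ratio. Repeat spots of linear probes gave a smaller error, a median SD of 0.066 for a single spot at 75 to 450 units. All 3 SDs lay above that value, but a ratio holds the error of both its spots. The log2 ratio of ASCRPR007618 to the other 11277 tested circRNAs had a median SD of 0.67 over the saline arrays, and 37 of them (0.328%) tracked it as closely as ASCRPR004694 did. For ASCRPR002682 the median was 0.63, and 140 others (1.24%) tracked it as closely as ASCRPR004694 did. The 3 were chosen with a step on saline 3 in common, so ratios steady over the saline arrays follow in part from the choice. These shares are therefore a description only.

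In the MCT lungs the ratio of ASCRPR007618 to ASCRPR002682 was turned. It stood at 0.746 on MCT 2, the only MCT array on which both were well above background, or -0.42 in log2 ratio with an error of 0.30 from the software. On the saline arrays the same log2 ratio was between 0.30 and 0.49. MCT 1 and MCT 3 gave 0.622 and 0.743, each with ASCRPR007618 not well above background. Taking spot brightness above the negative controls in place of the processed signal, the ratio was 1.34, 1.26 and 1.47 on the saline arrays and 0.554, 0.829 and 0.851 on MCT 1, MCT 2 and MCT 3. The 2 measures thus gave the same direction on each MCT array: the share of signal that remained was smaller for ASCRPR007618 than for ASCRPR002682. No test was made of this, and ratios to ASCRPR004694 have no measured value in MCT lungs because it was undetected there.

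**Figure D3:**
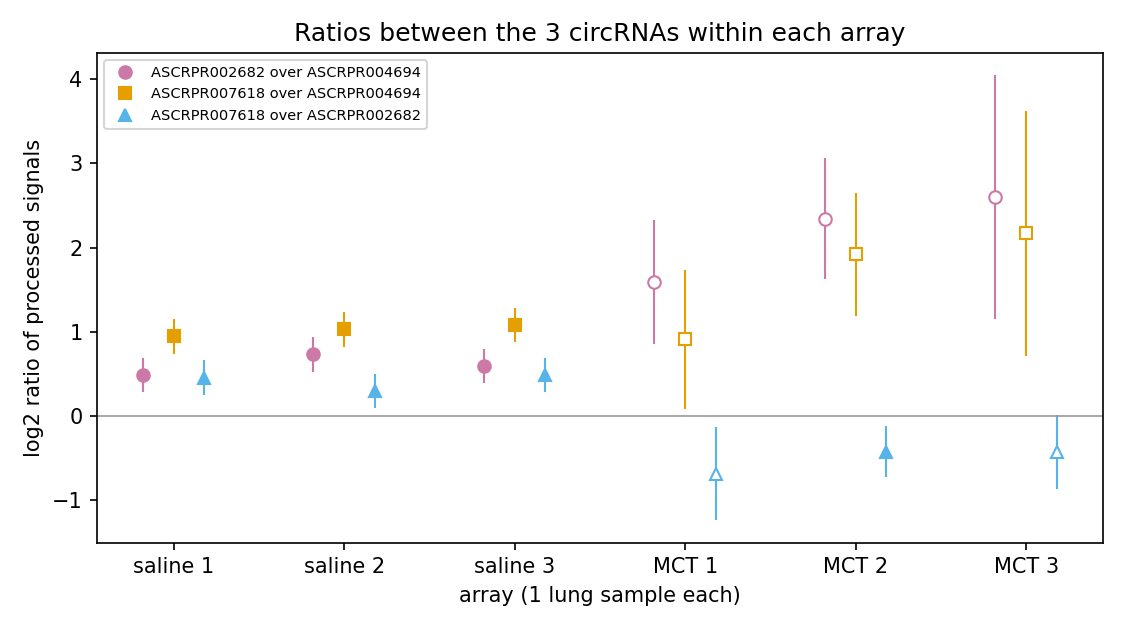
Log2 ratio of processed signals between the 3 circRNAs within each array; bars are the error propagated from the scanner software, and open points have at least 1 of both circRNAs not well above background. The saline ratios sit close together for each pair, and ASCRPR007618 over ASCRPR002682 lies above 0 on the saline arrays and below 0 on the MCT arrays.

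Linear transcripts that survived the RNase R digestion offered another yardstick. How complete the digestion was in each sample was not measured here, so this scale may move with it as well as with the amount of RNA. Of 11 probes of widely used reference transcripts, 10 were well above background on at least 3 arrays, and their scaled log2 differences between MCT and saline lungs ran from -0.75 to 0.52 with a median of -0.49. The brightest on the saline arrays were Hsp90ab1, a cytosolic chaperone, at 0.0069, and Actb, the cytoskeletal beta-actin, at -0.61. A probe of Ldha, the lactate dehydrogenase A subunit, came next at -0.50, and another, dimmer Ldha probe gave -0.72. Set against the median of the 8 reference probes well above background on all 6 arrays, the log2 signal of ASCRPR002682 was -0.26, 0.52 and 1.22 in saline lungs 1 to 3, while MCT lungs 1 to 3 gave -1.94, -2.67 and -1.48. On this scale ASCRPR007618 had saline values of 0.20, 0.82 and 1.71 and MCT values of -2.62, -3.10 and -1.91. The groups stayed apart for both, which follows in part from the choice of circRNAs whose groups do not overlap. MCT 2 was here the lowest MCT array for both. On the 75th percentile scale it was also the lowest for ASCRPR002682, at -2.23. For ASCRPR007618 MCT 1 was the lowest on that scale, at -2.78, so its order of MCT 1 and MCT 2 depends on the scaling. MCT 3 was the highest MCT array for both circRNAs on either scale. The differences became -2.53 for ASCRPR002682, -3.45 for ASCRPR007618 and -4.10 for ASCRPR004694, the last with undetected MCT values.

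The surroundings of the 3 spots on the array did not share their pattern. The spots lie apart, in rows 63, 91 and 159 of the grid, with no outlier mark on any array. Each has 8 neighbouring spots, whose median scaled log2 difference between MCT and saline lungs was 0.19 around ASCRPR004694, -0.090 around ASCRPR007618 and -0.33 around ASCRPR002682. The lowest single neighbour differed by -1.34. Local background at the 3 spots ran from 14.5 to 17.0 units on the saline arrays and from 14.0 to 24.0 units on the MCT arrays, where the median over all spots was 16.5 to 17.0 and 15.5 to 20.0 units. The highest of these, 24.0 units around ASCRPR007618 on MCT 2, equalled the 95th percentile of that array.

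In the authors' processed table, which is on a log2 scale, the contrast was smaller. ASCRPR004694 was listed at 7.07, 7.19 and 8.08 in saline lungs 1 to 3, against 5.41, 5.10 and 5.04 in MCT lungs 1 to 3. ASCRPR007618 was listed at 7.78, 7.98 and 9.13 against 5.49, 5.47 and 5.94, and ASCRPR002682 at 7.45, 7.70 and 8.53 against 5.87, 5.81 and 6.26. Saline 3 was again the highest for each, and no group overlapped the other. The differences were -2.26 for ASCRPR004694, -2.66 for ASCRPR007618 and -1.91 for ASCRPR002682, so ASCRPR007618 differed most. With undetected values raised to the detection limit, the processed signal gave -3.07, -3.80 and -2.92 in the same order. The -3.07 of ASCRPR004694 sets its saline mean against the detection limit alone and is a least size. Whether ASCRPR004694 or ASCRPR007618 changed more cannot be told from these values. The larger -4.49 of ASCRPR004694 rested on undetected MCT values. Many dim circRNAs share a value in this table: on MCT 3, ASCRPR004694 was 1 of 388 circRNAs listed at exactly the same number. Its background treatment is unknown, and normexp background correction with quantile normalization gave differences of -1.31, -1.78 and -1.27 in the same order. Set against the bound of 3.07 in log2 (8.38-fold) on the processed signal, both give a smaller size for ASCRPR004694, so that bound holds for the processed signal alone. The direction was the same in each of the 16 other settings tried, and the size was not. Since the groups do not overlap by choice, settings that only leave out arrays could not reverse the direction.

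**Figure D4:**
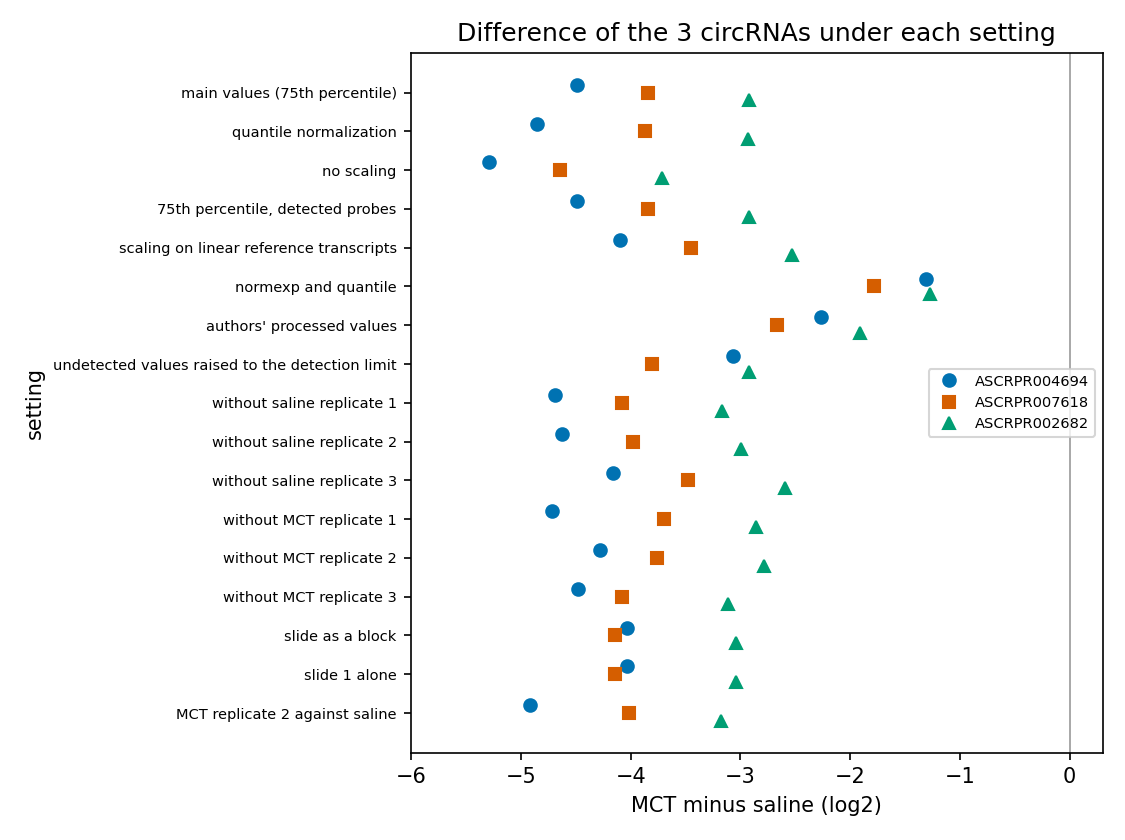
Difference between MCT and saline lungs (log2) of the 3 circRNAs with the values of the text and under the 16 other settings. All points lie below 0; the smallest differences come from normexp with quantile normalization and from the authors' table, and the largest from unscaled signals.

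The 3 were chosen for a shared profile, so their likeness to each other is given as a description. Pearson's r of scaled log2 signals over the 6 arrays, points that share 2 groups of 3 arrays, was 0.998 between ASCRPR007618 and ASCRPR002682, and 0.983 between ASCRPR004694, with its undetected MCT values, and each of these. Of 11269 other circRNAs with values on all arrays, 13 reached 0.95 with ASCRPR004694, 12 with ASCRPR007618 and 10 with ASCRPR002682, where the median r was 0.071, 0.057 and 0.055. The one most like both ASCRPR007618 and ASCRPR002682 was ASCRPR006864, with r of 0.996 and 0.995. It was a dim spot, at 11.8, 11.5 and 16.3 units on the saline arrays and at 1.84, 4.34 and 1.87 units on the MCT arrays. None of these MCT values was well above background, and its saline mean did not clear the MCT detection limit. The one most like ASCRPR004694 was ASCRPR011740 (r of 0.979), also undetected on the MCT arrays and at least 1.26-fold lower there. How far either changed cannot be said from these signals. The 3 circRNAs alone had a mean at least 4-fold lower in MCT lungs, no overlap and a step on saline 3 as large as theirs (3 of 11280, 0.0266%), but these limits were drawn from the 3 themselves.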

How the data were processed

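The deposited scanner files give intensity per spot: a processed signal, background-subtracted but not scaled between arrays, its error, and median brightness. Per the file headers the extraction software was version 11.0.1.1 of Agilent's. The authors' deposited table holds log2 values, and of its making the submitters' processing notes name limma alone. Each circRNA has 1 spot per array.

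Control spots and outlier-marked spots were left out, log2 signals of a probe's spots were averaged, and each array's 75th percentile was subtracted. circRNAs marked well above background on 3 or more arrays entered limma 3.58.1 (R 4.3.3, no covariate, Benjamini-Hochberg adjustment), a step tested on simulated data. The SE of a difference comes from the SDs of both groups. The number of arrays limits the precision. Linear probes were named through RefSeq accessions (GRCr8). The 3 circRNAs, the lists and the settings were chosen with earlier results of these data known. Besides the 3, the circRNA with the highest r to each and the 3 brightest reference transcripts are named. Alternatives covered scaling, background, filters, single arrays, slide and replicate number.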

Additional observations from a re-analysis of the deposited data

How the results depend on the processing

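Against differences of -4.49, -3.84 and -2.92 for ASCRPR004694, ASCRPR007618 and ASCRPR002682, leaving out 1 array gave -4.72 to -4.16, -4.08 to -3.48 and -3.17 to -2.59. Without scaling they were -5.29, -4.64 and -3.72, with normexp and quantile normalization -1.31, -1.78 and -1.27, and in the authors' values -2.26, -2.66 and -1.91. With undetected values raised to the detection limit ASCRPR004694 differed by -3.07. For each, 12 or 13 of 16 settings moved the difference by less than 1 SD and 0 reversed it. Settings that only leave out arrays could not reverse it, because the groups do not overlap by choice. Slide as a block gave the same differences as slide 1 alone. Signal over background limits the MCT values, and apart from settings that hold fewer arrays or circRNAs the cause of these shifts was not tested.

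The 2 lower limma calls became 1 without scaling, 0 with normexp and quantile normalization, in the authors' values, with the filter on all 6 arrays and for MCT 2 alone (628, 695, 455 and 416 lower at an unadjusted p of 0.05), 119 when slide was a block and 113 within slide 1. With 1 array left out they ran from 1 to 12. The 798 without overlap became 1547 without scaling, 215 with scaling on linear reference transcripts, 403 with the filter on all 6 arrays, 3762 in slide 1 alone and 2389 for MCT 2 alone, a setting chosen after seeing the data, and 930 to 2227 with 1 array left out. Saline log2 ratios moved from 1.02 to 0.91 (median signal) and 0.85 (authors' values) for ASCRPR007618 over ASCRPR004694, and from 0.61 to 0.45 (authors' values) for ASCRPR002682 over ASCRPR004694.

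The replicate block gave 12 lower calls. The labels tie the numbers to no shared litter or day, deviations of same-numbered arrays correlated at -0.23, -0.36 and -0.45, and the block does not change the differences.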
